A study of Mus musculus with 8 samples.

Results

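The G1 cyclins, their kinases and the inhibitors of those kinases decide when a cell leaves G1, the stretch of the cell cycle before DNA replication. The 10 genes described here were chosen by name from the 55401 genes of the count table: the D cyclin genes Ccnd1, Ccnd2 and Ccnd3, the E cyclin genes Ccne1 and Ccne2, the D cyclin kinase genes Cdk4 and Cdk6, and the inhibitor genes Cdkn1b, Cdkn1c and Cdkn2a. They and the gene lists below were chosen with earlier results of these data known, so their counts beside all genes are a description. All 10 of the 10 had enough counts to be tested, as did 17125 genes of the table.

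Poly(A) RNA was sequenced from the mouse embryonic stem cell (ESC) line R1, in 4 groups of 2 libraries. Zfp462 knockout ESCs and wild-type control ESCs were harvested undifferentiated (day 0) from gelatin-coated plates with serum and LIF, the cytokine that keeps them self-renewing. Zfp462 knockout and wild-type control embryoid bodies (EBs), aggregates in which ESCs begin to differentiate, were harvested after 3 days in Petri dishes. The question was what the zinc finger gene Zfp462 contributes to the upkeep and differentiation of ESCs. The knockout was carried in stable ESC lines, and the number of clones, the deleted exons and the source of each library (separate cultures or not) are not stated in the labels, so the p-values rest on a spread between replicate libraries, pooled over the 4 groups, that may be technical only.

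As background, D cyclins are made in answer to growth signals and bind CDK4 or CDK6, which begin the phosphorylation of the retinoblastoma protein. E cyclins then activate CDK2, the retinoblastoma protein releases the E2F factors, and these switch on the genes of DNA replication. CDK inhibitors of the CIP/KIP family bind cyclin and CDK together, whereas those of the INK4 family bind CDK4 and CDK6 alone. Mouse ESCs are known for a short G1, with much cyclin E and little cyclin D and inhibitor, and G1 lengthens as they differentiate.

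Library totals ranged from 12119763 to 16228426 counts. Zfp462 itself had 104.0 and 106.6 CPM (counts scaled to library size, with TMM factors) in knockout ESCs, against 183 and 197 CPM in control ESCs, and 102.0 and 102.5 CPM in knockout EBs, against 154 and 130.3 CPM in control EBs. Zfp462 RNA thus remained at 0.554 of the control level in ESCs and 0.720 in EBs, and since the deleted exons are not stated, the gene count does not show whether the protein was lost. The summed level of 5 ESC markers, among them Pou5f1 and Nanog, was 2163 and 2021 CPM in knockout ESCs, against 3131 and 3160 CPM in control ESCs. In EBs 4 epiblast markers, among them Fgf5 and Otx2, summed to 1102 and 1079 CPM in knockout EBs, against 1734 and 1836 CPM in control EBs. The 2 knockout ESC replicates differed along GC content across genes (correlation 0.691 over 11328 genes, against values between -0.043 and 0.00162 in the other 3 groups). Set against the mean of the 6 libraries of the other groups, the correlation with GC was -0.431 in knockout ESC replicate 2, 0.0419 in replicate 1 and between -0.136 and 0.218 in the 6 others. Knockout EB replicate 1 held liver transcripts: 7 adult liver markers, Alb among them, summed to 1869 CPM there, against 140.5 CPM in knockout EB replicate 2 and at most 94.7 CPM in control EBs. Fibroblast markers stayed between 11.2 and 19.9 CPM and trophoblast markers between 12.2 and 31.9 CPM in sum, with Lum at 0 in 7 of the 8 libraries.

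The level of each gene per kilobase of gene length put Cdk4 and Ccne1 far above the other genes in each group. In knockout ESCs Cdk4 averaged 88.0 ± 4.37 and Ccne1 74.6 ± 3.46 CPM per kilobase, and in control ESCs 95.5 ± 3.56 and 82.5 ± 0.713 CPM per kilobase (SD, n = 2 each). In knockout EBs the averages were 104.5 ± 0.849 for Cdk4 and 77.1 ± 2.29 for Ccne1, and in control EBs 120.5 ± 0.227 and 96.3 ± 7.02 CPM per kilobase. Next in control ESCs came Ccnd1 at 19.5 ± 0.470 and Ccnd3 at 16.5 ± 0.443 CPM per kilobase, then Cdkn1b at 12.9 ± 1.18 and Cdkn2a at 9.99 ± 1.66, and Ccne2 at 6.43 ± 0.882. Cdkn1c, Ccnd2 and Cdk6 were lowest there, at 2.53 ± 0.131, 2.49 ± 0.133 and 2.38 ± 0.0716 CPM per kilobase, and these 3 did not differ beyond their spread. The order differed in knockout ESCs, where Cdkn2a at 19.3 ± 1.43 and Ccnd3 at 18.3 ± 4.98 CPM per kilobase came next after Ccne1 and did not differ beyond their spread. There Cdkn1b at 12.4 ± 0.0266 and Ccnd1 at 11.7 ± 0.879 CPM per kilobase followed, and Ccnd2 at 6.03 ± 0.528 stood above Cdkn1c and Cdk6. In knockout EBs Ccnd1 came next after Ccne1, at 22.4 ± 1.33 CPM per kilobase, and Cdkn2a at 15.2 ± 1.81 and Ccnd3 at 14.7 ± 0.334 were alike within their spread. In control EBs Ccnd1 held the same place, at 32.6 ± 0.583 CPM per kilobase, and Ccnd2 and Cdk6 were lowest, at 1.68 ± 0.271 and 1.51 ± 0.0771. The middle of this order depends on the length used. Scaled by the longest annotated transcript in place of the table's gene length, Ccnd3 stood above Ccnd1 in knockout ESCs (41.7 ± 11.3 and 14.7 ± 1.11 CPM per kilobase), control ESCs (37.6 ± 1.01 and 24.6 ± 0.592) and knockout EBs (33.5 ± 0.759 and 28.2 ± 1.67), and below it in control EBs (32.5 ± 0.190 and 41.1 ± 0.734). Cdkn2a, at 25.2 ± 1.87 in knockout ESCs and 19.9 ± 2.37 in knockout EBs, was then below Ccnd3 in both. On that scale Ccnd1 was above Cdkn1b (12.4 ± 0.0266) in knockout ESCs, and Ccnd2, at 3.70 ± 0.198 in control ESCs, was above Cdkn1c and Cdk6.

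**Figure D1:**
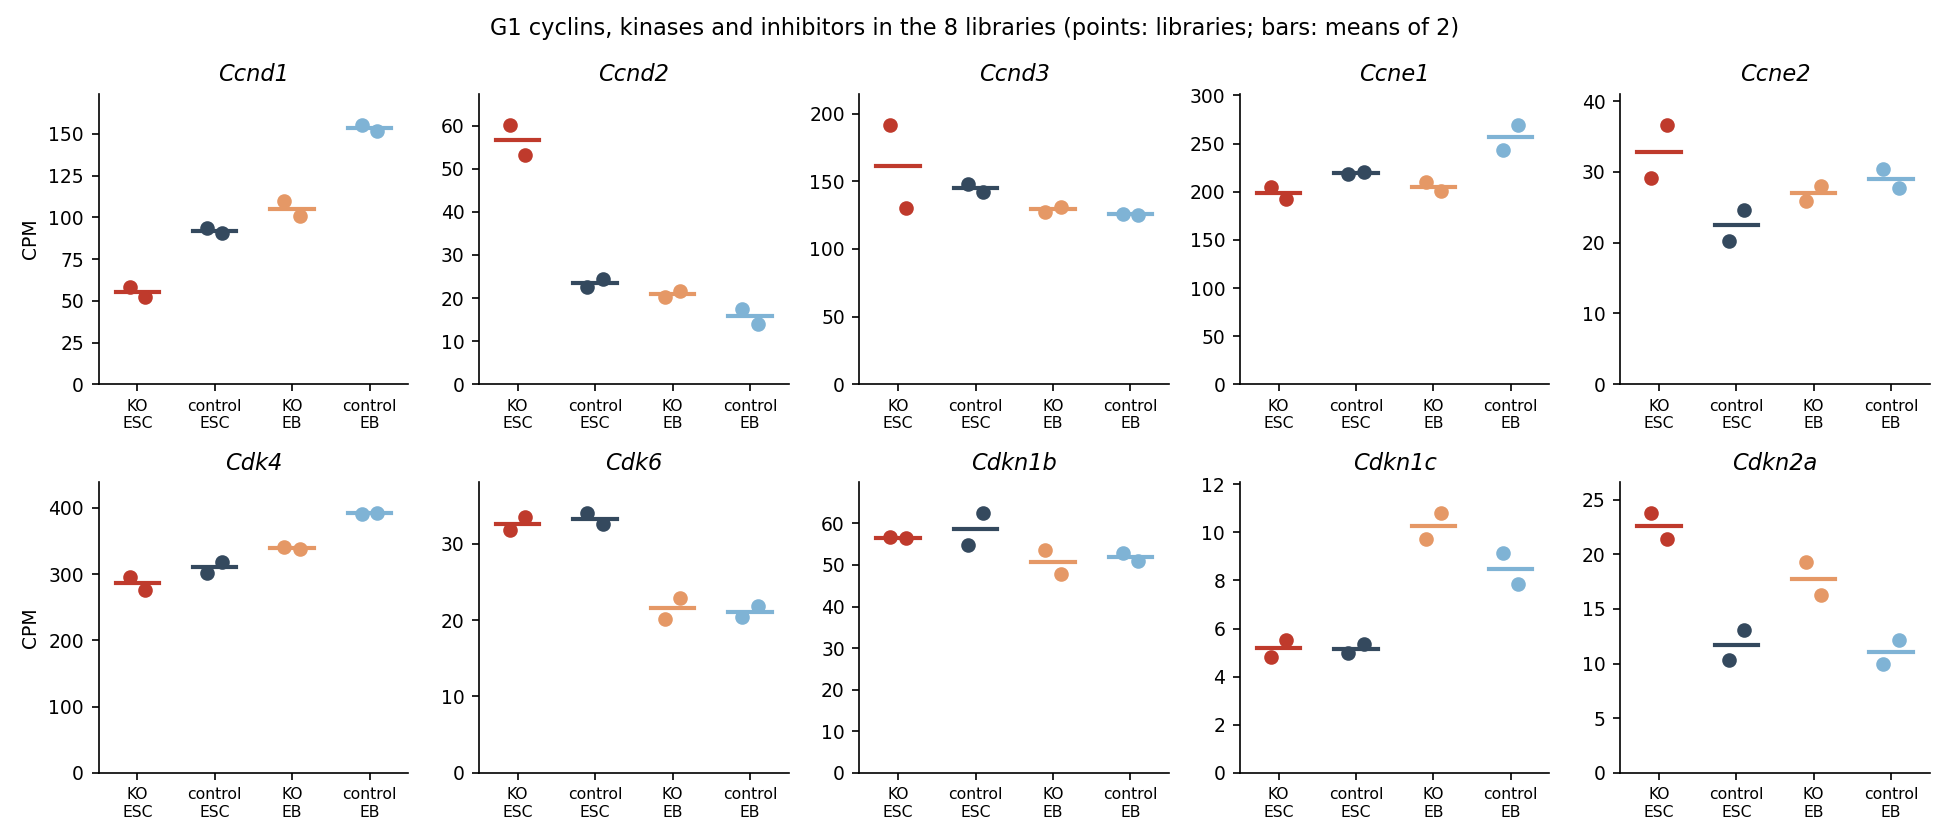
Levels in CPM (y axis, linear from 0) of the 10 genes in the 8 libraries, with knockout (KO) and control groups of ESCs and day 3 EBs along the x axis. Points are libraries and bars are means of 2. Ccnd1 is lower in both knockout groups than in their controls, Ccnd2 stands at 53.2 and 60.2 CPM in knockout ESCs alone, and both knockout groups lie above both control groups for Cdkn2a.

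Knockout and control ESCs were compared first. Among the D cyclins of knockout ESCs Ccnd2 rose and Ccnd1 fell, while Ccnd3 did not pass the test. Cdkn2a and, less firmly, Ccne2 also rose, and the kinases and the CIP/KIP inhibitors showed no called change. Of the 10 genes, 4 passed edgeR's quasi-likelihood test (adjusted p under 0.05), 3 higher and 1 lower. Of all 17125 genes tested, 14.5% were called in either direction in this comparison, 8.30% higher and 6.20% lower. The median log2 change of the 10 genes was -0.01, beside -0.03 over all genes tested.

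Ccnd1 (minus strand of chr7:144929931-144939925, mm10) encodes cyclin D1, the D cyclin most tied to growth factor signals. It had 58.0 and 52.2 CPM in knockout ESCs, against 93.6 and 90.4 CPM in control ESCs. Both knockout libraries lay well below both controls, by a log2 change of -0.74 ± 0.10 (SE; edgeR adjusted p = 0.00068). Ccnd2 (minus strand of chr6:127125162-127152193) encodes cyclin D2. It had 60.2 and 53.2 CPM in knockout ESCs, against 22.6 and 24.3 CPM in control ESCs. The groups were far apart, with a log2 change of 1.27 ± 0.14, or 2.42-fold (edgeR adjusted p = 0.000244). Both calls held in all 17 alternatives of processing and of libraries, with Ccnd1 between -0.83 and -0.67 and Ccnd2 between 1.17 and 1.36 on the log2 scale.

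Ccnd3 (plus strand of chr17:47505051-47599691) encodes cyclin D3. It had 192 and 130 CPM in knockout ESCs, against 148 and 142 CPM in control ESCs. The knockout libraries lay on either side of the controls, and the log2 change of 0.15 ± 0.15 did not pass (edgeR adjusted p = 0.564). Without knockout ESC replicate 2, the library with the strongest GC trend, the value was 0.40 (adjusted p = 0.00202). With each library's GC trend removed it was 0.28 (adjusted p = 0.016), and without replicate 1 it was -0.17.

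Summed per kilobase, the 3 D cyclins came to 36.1 ± 6.39 CPM per kilobase in knockout ESCs and 38.5 ± 0.780 in control ESCs (SD, n = 2 each), which is within the spread of the knockout libraries. The makeup of that sum differed. Ccnd1 held 32.8 ± 3.36% of it in knockout ESCs and 50.7 ± 0.195% in control ESCs, and Ccnd2 held 16.9 ± 1.52% in knockout ESCs and 6.47 ± 0.476% in control ESCs. Ccnd3 held 50.4 ± 4.89% in knockout ESCs and 42.9 ± 0.282% in control ESCs. No library of one genotype reached the shares of Ccnd1 and Ccnd2 in the other. Scaled by the longest transcript, Ccnd3 took the greater part in both groups (63.3 ± 4.53% in knockout ESCs and 57.0 ± 0.315% in control ESCs). Ccnd1 then held 22.8 ± 2.92% in knockout ESCs and 37.3 ± 0.105% in control ESCs.

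**Figure D2:**
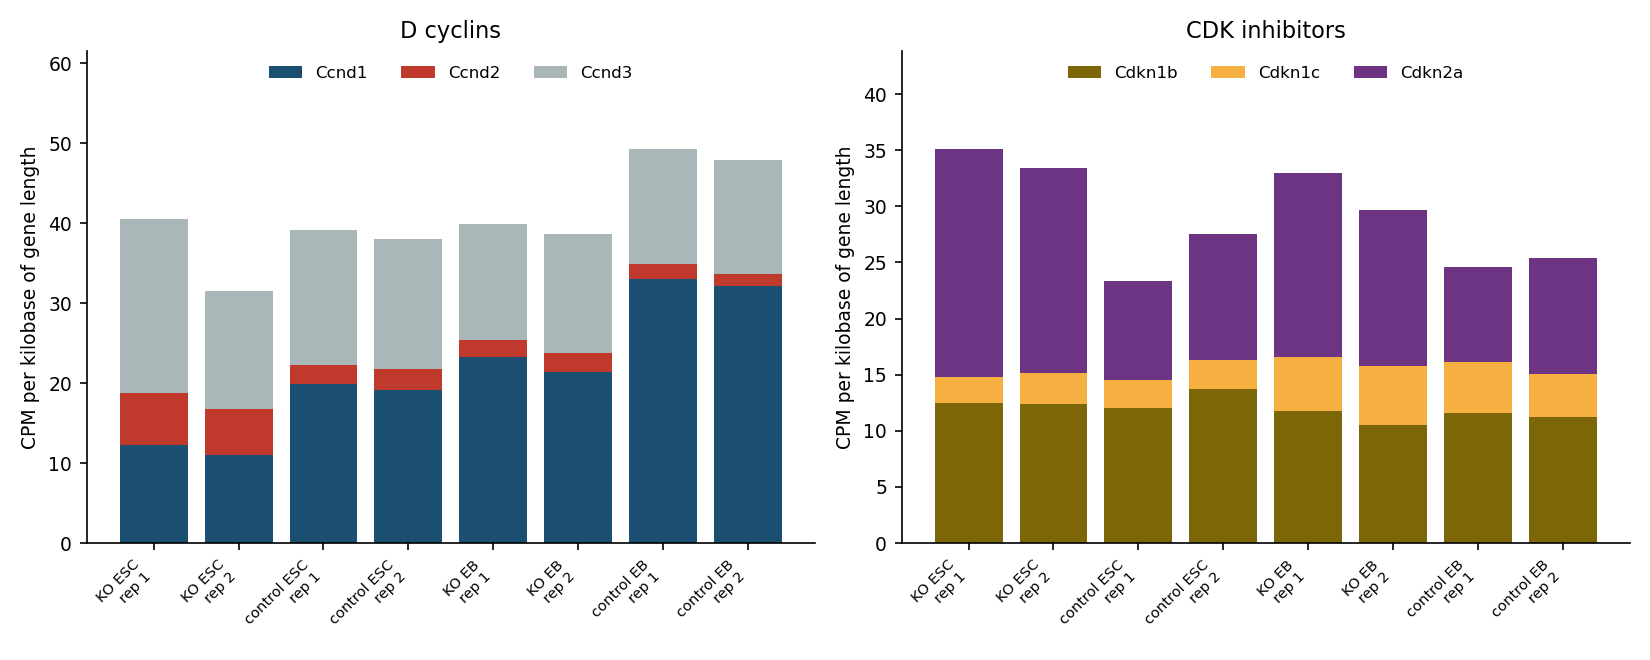
Summed levels in CPM per kilobase of gene length (y axis from 0) of the D cyclins, left, and of the CDK inhibitors, right, in each of the 8 libraries. Segments are genes. The D cyclin sum is 40.6 and 31.5 in knockout ESCs, on either side of the 39.1 and 38.0 of control ESCs, with more of it from Ccnd2 and less from Ccnd1. The taller inhibitor bars of both knockout groups differ from their controls mainly in the Cdkn2a segment. That segment also counts reads of the gene's other product, p19ARF, which acts on MDM2. Cdkn1a and the other inhibitor genes are not in the bars.

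The E cyclins were dominated by Ccne1, which held 88.8 ± 2.09% of their summed level per kilobase in knockout ESCs and 92.8 ± 0.862% in control ESCs. Ccne1 (minus strand of chr7:38097984-38107534) had 205 and 192 CPM in knockout ESCs, against 218 and 221 CPM in control ESCs. Both knockout libraries were slightly lower, and the log2 change of -0.15 ± 0.09 did not pass (edgeR adjusted p = 0.322). Ccne2 (plus strand of chr4:11191351-11204779) had 29.1 and 36.7 CPM in knockout ESCs, against 20.3 and 24.6 CPM in control ESCs. Both knockout libraries were higher, with a log2 change of 0.55 ± 0.15 (edgeR adjusted p = 0.0394). This call was lost in 8 of 17 alternatives, at adjusted p between 0.0747 and 0.299. They were the fit to the ESC libraries alone and 7 of the 8 fits that left out a library, all but the one without knockout ESC replicate 1. Ccne2 transcripts have a GC content of 36.3%, at the 1.14th percentile of the genes tested. With the GC trend removed the log2 change was 0.61 (edgeR adjusted p = 0.00253). Without knockout ESC replicate 2, the library with the strongest GC trend, it was 0.36, the lowest of the 17 alternatives.

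The kinases that D cyclins activate showed no called change. Cdk4 (plus strand of chr10:127063534-127067920) had 296 and 276 CPM in knockout ESCs, against 302 and 319 CPM in control ESCs, a log2 change of -0.12 ± 0.08 (edgeR adjusted p = 0.37). Cdk6 (plus strand of chr5:3341485-3531008) had 31.8 and 33.6 CPM in knockout ESCs, against 34.0 and 32.6 CPM in control ESCs, a log2 change of -0.03 ± 0.12 (edgeR adjusted p = 0.916). The Cdk6 groups overlapped. The 95% intervals ran from -0.29 to 0.06 for Cdk4 and from -0.30 to 0.25 for Cdk6. Per kilobase, Cdk4 made up 97.4 ± 0.222% of the 2 kinases in knockout ESCs and 97.6 ± 0.160% in control ESCs.

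Among the inhibitors, Cdkn2a alone was called. This gene, on the minus strand of chr4:89274471-89294653, has 2 annotated transcripts that begin at separate first exons and read their shared second exon in different frames. One encodes p16INK4a, an inhibitor of CDK4 and CDK6, and the other p19ARF, which restrains MDM2 and so stabilizes p53. The table has 1 count for the gene, so reads of the 2 products are summed. Cdkn2a had 23.8 and 21.4 CPM in knockout ESCs, against 10.3 and 13.1 CPM in control ESCs. Both knockout libraries exceeded both controls, by 1.92-fold or a log2 change of 0.94 ± 0.19 (edgeR adjusted p = 0.00722). Without control ESC replicate 1 the log2 change was 0.78 and the call was lost (adjusted p = 0.105).

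Both start regions of Cdkn2a are shown because the count cannot say which of them was used more. The sequences are from RefSeq (GRCm38.p6), on the minus strand and 5′ to 3′, and end before the first annotated exon base. The first lies at chr4:89282193-89282442, before the p16INK4a start, and the second at chr4:89294654-89294869, before the p19ARF start. Capitals mark a match to TTTCCCGC or TTTGGCGC, forms of the E2F site, searched on both strands.
p16INK4a start: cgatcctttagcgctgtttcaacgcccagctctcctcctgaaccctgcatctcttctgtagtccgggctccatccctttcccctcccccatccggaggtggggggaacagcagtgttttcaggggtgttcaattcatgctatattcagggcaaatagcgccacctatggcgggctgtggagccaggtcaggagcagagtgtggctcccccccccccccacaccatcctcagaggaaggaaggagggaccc
p19ARF start: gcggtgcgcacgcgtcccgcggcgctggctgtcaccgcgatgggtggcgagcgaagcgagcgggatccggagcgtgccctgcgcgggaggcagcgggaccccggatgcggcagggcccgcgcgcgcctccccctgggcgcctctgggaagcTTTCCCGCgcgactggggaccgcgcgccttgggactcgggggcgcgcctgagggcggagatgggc
The p19ARF window held 1 match, TTTCCCGC, and the p16INK4a window none. Of 8 windows matched to 6 of the 10 genes (Ccnd3, Ccne1, Cdk4, Cdk6, Cdkn1b and Cdkn2a), this was the single window with a match. Over all 32851 mouse windows of the table, 427 (1.30%) held one. A match in these letters describes the sequence only. The 2 neighbours of Cdkn2a that could be tested were not called: Cdkn2b, which encodes another INK4 inhibitor, had a log2 change of 0.17 ± 0.38 (edgeR adjusted p = 0.82), and Mtap, a gene of methionine salvage, 0.12 ± 0.11 (adjusted p = 0.531).

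Cdkn1b (plus strand of chr6:134920401-134925513) encodes p27KIP1, an inhibitor of cyclin E with CDK2. It had 56.6 and 56.5 CPM in knockout ESCs, against 54.9 and 62.5 CPM in control ESCs. The knockout values lay between the control values, with a log2 change of -0.05 ± 0.11 (edgeR adjusted p = 0.8). Cdkn1c (minus strand of chr7:143458339-143461050), an imprinted gene for p57KIP2 that is expressed from the maternal allele, had 4.81 and 5.53 CPM in knockout ESCs, against 4.97 and 5.34 CPM in control ESCs. These values overlapped as well (log2 change 0.00 ± 0.22, adjusted p = 0.996), on 61 to 87 counts a library. Per kilobase the 3 inhibitor genes summed to 34.2 ± 1.21 in knockout ESCs and 25.4 ± 2.97 in control ESCs. Of this Cdkn2a held 56.3 ± 2.19% in knockout ESCs and 39.2 ± 1.94% in control ESCs. That sum counts p19ARF reads with those of p16INK4a, and leaves out Cdkn1a and the other inhibitor genes described below.

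Markers of other cell states moved with these changes. The 11 extraembryonic endoderm markers, all with at least 10 counts in every library, summed to 12960 and 10170 CPM in knockout ESCs, against 2901 and 3055 CPM in control ESCs. The 6 markers of 2-cell-like cells summed to 265 and 359 CPM in knockout ESCs, against 72.6 and 80.2 CPM in control ESCs. In bulk RNA, more cells of a type and more RNA per cell cannot be told apart, and the part of these markers in the changes of Ccnd1, Ccnd2, Ccne2 and Cdkn2a was not tested. Several genes share bases with a gene on the opposite strand, and no source used here gives the strand setting of the counting. Of the exon bases, 23.4% are shared with LTO1 for Ccnd1, 17.4% with Ints8 for Ccne2, 19.7% with Tspan31 for Cdk4 and 4.1% with Bysl for Ccnd3. For Cdkn1c 30.7% are shared with Gm44732, which had 0 counts, and Cdkn2a shares none with an annotated gene.

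**Figure D3:**
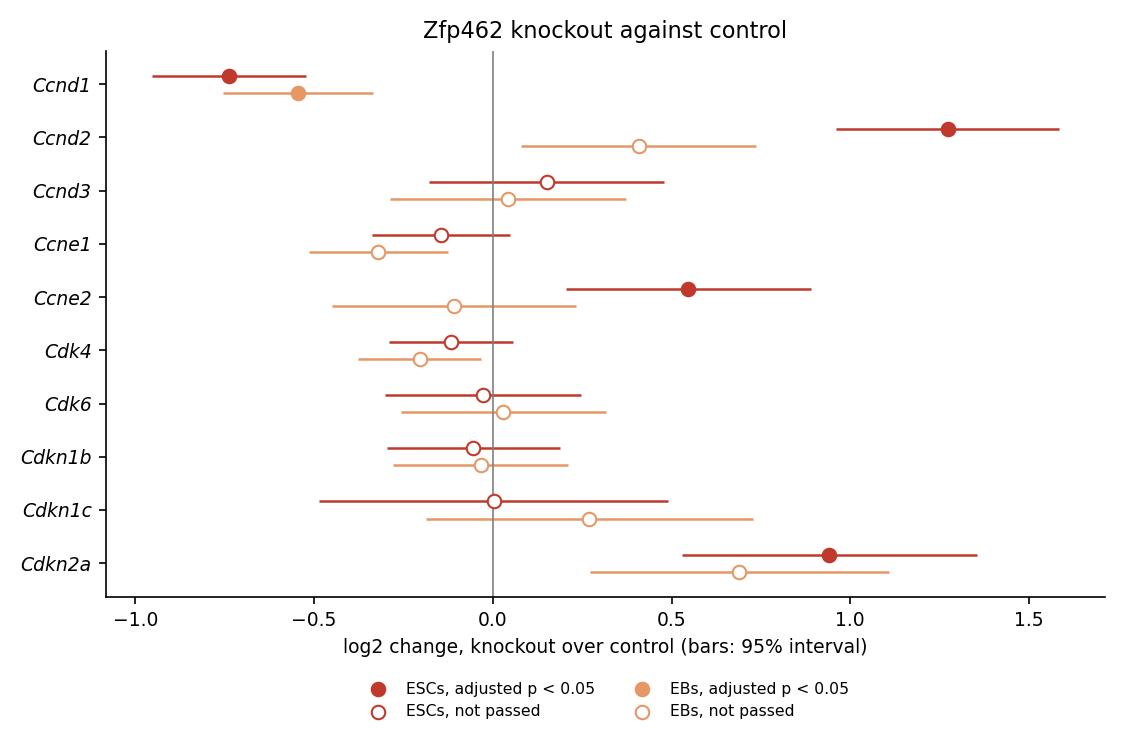
Log2 change of each gene in knockout against control (x axis), in ESCs and in EBs. Points are edgeR estimates, filled where the adjusted p was below 0.05, and bars are 95% intervals. Ccnd1 lies to the left of 0 and Cdkn2a to the right in both stages, and Ccnd2 is at 1.27 in ESCs and 0.41 in EBs.

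In day 3 EBs 1 of the 10 genes was called: Ccnd1 fell in the knockout here too. Over all 17125 genes, 6.80% were called in EBs, 4.75% higher and 2.04% lower. The median log2 change was 0.00 both over the 10 genes and over all genes tested. Ccnd1 had 109.7 and 100.9 CPM in knockout EBs, against 156 and 152 CPM in control EBs. Both knockout libraries were lower, by a log2 change of -0.54 ± 0.10 (edgeR adjusted p = 0.00746). The call was lost when any 1 of the 4 EB libraries was left out. Without knockout EB replicate 1, which held the liver transcripts, the log2 change was -0.60 (adjusted p = 0.0531), and without knockout EB replicate 2, control EB replicate 1 and control EB replicate 2 it was -0.49, -0.53 and -0.56 (adjusted p = 0.0945, 0.104 and 0.0656).

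Ccnd2 had 20.3 and 21.7 CPM in knockout EBs, against 17.6 and 14.0 CPM in control EBs. Both knockout libraries were higher, though the log2 change of 0.41 ± 0.15 did not pass (edgeR adjusted p = 0.137). Ccnd3 had 127 and 131 CPM in knockout EBs, against 126 and 125 CPM in control EBs (log2 change 0.04 ± 0.15, adjusted p = 0.91). Per kilobase, the D cyclins summed to 39.3 ± 0.884 in knockout EBs and 48.6 ± 0.938 in control EBs. Ccnd1 held 56.9 ± 2.09% of this in knockout EBs and 67.1 ± 0.0962% in control EBs, and Ccnd2 5.67 ± 0.401% in knockout EBs and 3.44 ± 0.492% in control EBs. By the longest transcript Ccnd1 held 43.3 ± 2.07% in knockout EBs and 54.0 ± 0.0226% in control EBs, and Ccnd3 51.6 ± 1.76% in knockout EBs and 42.8 ± 0.496% in control EBs, so Ccnd3 then had the greatest share in knockout EBs.

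Cdkn2a had 19.3 and 16.3 CPM in knockout EBs, against 9.95 and 12.2 CPM in control EBs. The groups did not overlap, and the log2 change of 0.69 ± 0.19 narrowly missed the threshold (edgeR adjusted p = 0.0564). It passed in 7 of 17 alternatives, with adjusted p over all 17 between 0.0102 and 0.37. Ccne1 had 209.7 and 201 CPM in knockout EBs, against 243 and 269.7 CPM in control EBs. Both knockout libraries were lower, with a log2 change of -0.32 ± 0.09 (edgeR adjusted p = 0.0557). It passed in 8 of 17 alternatives, with adjusted p between 0.00544 and 0.327.

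The other 6 genes of the EB comparison had log2 changes between -0.21 and 0.27 with Ccnd3 among them. Cdk4 had 342 and 338 CPM in knockout EBs, against 391 and 392 CPM in control EBs, without overlap (log2 change -0.21 ± 0.08, edgeR adjusted p = 0.155). In the fit to the EB libraries alone Cdk4 passed as lower (log2 change -0.195, edgeR adjusted p = 0.0277). Ccne2 had 25.8 and 28.1 CPM in knockout EBs, against 30.4 and 27.7 CPM in control EBs, which overlapped (log2 change -0.11 ± 0.15, adjusted p = 0.747). Cdk6 and Cdkn1b overlapped between the groups as well, at log2 changes of 0.03 ± 0.13 and -0.03 ± 0.11 (adjusted p = 0.927 and 0.9). Cdkn1c had 9.71 and 10.8 CPM in knockout EBs, against 9.15 and 7.84 CPM in control EBs (log2 change 0.27 ± 0.21, adjusted p = 0.505). Extraembryonic endoderm markers were again higher in knockout libraries, at 6640 and 7246 CPM in knockout EBs against 3368 and 3593 CPM in control EBs. The 2-cell-like markers summed to 118.6 and 138.8 CPM in knockout EBs, against 18.8 and 21.3 CPM in control EBs. The part of both lists in the EB values was not tested.

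Whether the knockout effect itself differed between stages was asked with the difference contrast (the effect in EBs minus the effect in ESCs). None of the 10 genes passed in edgeR, beside 1.38% of all genes tested (0.742% higher and 0.642% lower). Among the 10 genes, the differences furthest from 0 were those of Ccnd2 and Ccne2. For Ccnd2 the difference was -0.87 ± 0.20 on the log2 scale (adjusted p = 0.082), with a 95% interval from -1.32 to -0.41. DESeq2 called it (adjusted p = 0.0372), as did 5 of the other 15 alternatives, with adjusted p over all 16 between 0.00853 and 0.414. For Ccne2 it was -0.65 ± 0.22 (adjusted p = 0.229). For Ccnd1 the difference of 0.19 ± 0.14 (adjusted p = 0.635) had an interval from -0.11 to 0.49, and for Cdkn2a that of -0.25 ± 0.27 (adjusted p = 0.776) had one from -0.84 to 0.33.

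The change over 3 days of differentiation was then compared within each genotype. In both genotypes Ccnd1 and Cdkn1c rose and Ccnd2 and Cdk6 fell, and in control cells Cdk4 rose as well. In knockout cells 4 of 10 genes were called, 2 in each direction, where 15.3% of all genes were called (8.23% higher and 7.11% lower). In control cells 5 of 10 were called, 3 higher and 2 lower, where 18.2% of all genes were called (8.60% higher and 9.63% lower). The ESC libraries of each genotype also enter the knockout comparisons above. The difference contrast above also tests whether this change differed between genotypes. None of the 10 genes passed it, which does not show that the changes were alike.

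Ccnd1 was higher in EBs than in ESCs by 0.93 ± 0.10 on the log2 scale in knockout (edgeR adjusted p = 0.000206) and by 0.74 ± 0.10 in control (adjusted p = 0.000565). Knockout EBs, at 109.7 and 100.9 CPM, were close to control ESCs, at 93.6 and 90.4 CPM. Ccnd2 fell by 1.44 ± 0.14 in knockout (adjusted p = 0.000154) and by 0.57 ± 0.15 in control (adjusted p = 0.0233). The control call for Ccnd2 was lost without control ESC replicate 1 or 2 or control EB replicate 2, at -0.63, -0.52 and -0.42 (adjusted p = 0.0997, 0.183 and 0.15). By day 3 the Ccnd2 level in knockout EBs, 20.3 and 21.7 CPM, was just under that of control ESCs, 22.6 and 24.3 CPM.

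Cdk6, the kinase with the lower level, had 20.1 and 23.0 CPM in knockout EBs, against 31.8 and 33.6 CPM in knockout ESCs, and 20.4 and 21.9 CPM in control EBs, against 34.0 and 32.6 CPM in control ESCs. It fell by 0.60 ± 0.13 in knockout (edgeR adjusted p = 0.0114) and by 0.66 ± 0.13 in control (adjusted p = 0.00567), with no overlap of stages. Without either knockout EB replicate the knockout call was lost, at -0.49 without replicate 1 and -0.70 without replicate 2 (adjusted p = 0.172 and 0.0508), and in the fit to the knockout libraries alone it was also lost (-0.60, adjusted p = 0.0828). Without control ESC replicate 1 or 2 or control EB replicate 1 the control call was lost, at -0.63, -0.69 and -0.61 (adjusted p = 0.0693, 0.0594 and 0.0656). Cdk4 was higher by 0.25 ± 0.08 in knockout EBs (adjusted p = 0.0565, not passed) and by 0.34 ± 0.08 in control EBs (adjusted p = 0.0148). The control call for Cdk4 was lost without any 1 of the 4 control libraries, at adjusted p between 0.0926 and 0.157.

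Cdkn1c rose by 0.99 ± 0.21 in knockout (edgeR adjusted p = 0.0128) and by 0.72 ± 0.21 in control (adjusted p = 0.0412), which is 1.98-fold in knockout. Cdkn1c transcripts are GC-rich (59.4%, at the 94.6th percentile), and with the GC trend removed neither call held, at 0.63 in knockout and 0.45 in control (adjusted p = 0.103 and 0.231). The control call also did not hold with the replicate number as a block (0.72, adjusted p = 0.055) and was lost in 12 of 17 alternatives in all. The knockout call was lost in 5 of 17, among them without knockout EB replicate 1 (1.07, adjusted p = 0.0519) and without replicate 2 (0.91, adjusted p = 0.0882). Ccnd3, Ccne1, Ccne2, Cdkn1b and Cdkn2a passed in neither genotype, with log2 changes between -0.34 and 0.05 in knockout and between -0.21 and 0.37 in control. With the GC trend removed 3 of these 5 passed: Ccnd3 at -0.55 in knockout and -0.42 in control (adjusted p = 0.000181 and 0.00114), Cdkn2a at -0.70 in knockout (adjusted p = 0.0211) and Ccne2 at 0.45 in control (adjusted p = 0.0156).

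**Figure D4:**
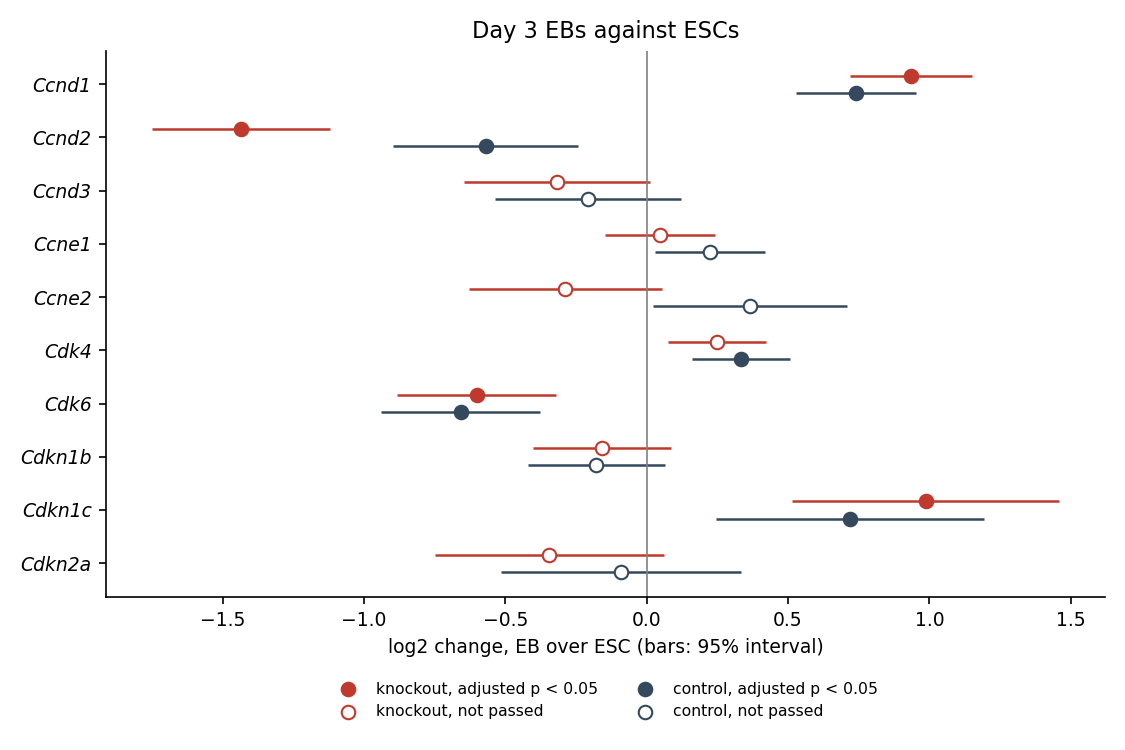
Log2 change of each gene from ESCs to day 3 EBs (x axis, EB over ESC), in knockout and in control. Points are edgeR estimates, filled where the adjusted p was below 0.05, and bars are 95% intervals. Ccnd2 lies at -1.44 in knockout and -0.57 in control, Ccnd1, Cdk6 and Cdkn1c lie on the same side of 0 in both, and Ccne2 lies on opposite sides with neither value called.

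Genes whose level ran most like that of a called gene over the 8 libraries were picked by the Pearson correlation of log2 CPM among 10439 protein-coding genes. They are a description, since all genes share the same libraries and groups. For Ccnd1 they were Mapk12 and Drosha (r = 0.995 and 0.994). For Ccnd2 they were Car12 and Cryab (both r = 0.993), and Cryab averaged 27.7 CPM in knockout ESCs, against 5.73 CPM in control ESCs. For Cdkn2a they were Capn2 and Slc17a5 (r = 0.986 and 0.984). For Ccne2 the likeness was looser, with Gosr2 and Arfip1 (r = 0.949 and 0.934).

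A list of 18 factors through which growth signals act on D cyclins holds activators such as the MYC family and genes that restrain D cyclins (Foxo1, Foxo3 and Gsk3b). Of its 17 tested genes 6 fell and 1 rose in knockout ESCs, where 6.20% of all genes fell and 8.30% rose, with a median log2 change of -0.37 beside -0.03 over all genes. Lef1, a partner of beta-catenin in WNT signalling, had 3.13 and 3.49 CPM in knockout ESCs, against 8.79 and 10.6 CPM in control ESCs. Its log2 change was -1.55 ± 0.17 (edgeR adjusted p = 0.000262). Mycl, of the MYC family, changed by -1.26 ± 0.16 (adjusted p = 0.00053), and Etv5, an ETS factor downstream of FGF signals, by -0.58 ± 0.07 (adjusted p = 0.000488). In knockout EBs 3 fell and none rose, where 2.04% of all genes fell and 4.75% rose (median log2 change -0.04): Mycl by 0.86 ± 0.15, Lef1 by 0.67 ± 0.13 and Mycn by 0.51 ± 0.12 (adjusted p = 0.00684, 0.0151 and 0.0317). Without knockout EB replicate 1 these 3 EB calls were lost, in a fit that also called far fewer of all genes in EBs. The ESC calls did not change in number there. Without knockout ESC replicate 2 more of the list fell in EBs, as did more of all genes. Named after their values were seen, Egr1, Mycn and Foxo1 were the other 3 that fell in knockout ESCs, and Tcf7l2, at 1.21 ± 0.20 (adjusted p = 0.00224), was the one that rose. Over differentiation 11 of the 17 rose in knockout and 9 in control, beside 8.23% and 8.60% of all genes, among them Lef1, by 3.35 ± 0.17 in knockout and 2.46 ± 0.15 in control (adjusted p = 2.49e-06 and 4.3e-06).

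Downstream, 3 of 13 pocket protein and E2F genes fell in knockout ESCs and none rose, beside 6.20% and 8.30% of all genes (median log2 change -0.18). Tfdp2, which encodes a DP partner of E2F factors, had 64.0 and 68.9 CPM in knockout ESCs, against 105.4 and 108.2 CPM in control ESCs. Its log2 change was -0.69 ± 0.09 (edgeR adjusted p = 0.000748). E2f1, an activating E2F, changed by -0.69 ± 0.14 and Rb1, the retinoblastoma gene, by -0.61 ± 0.12 (adjusted p = 0.00698 and 0.00818). The count was also 3 with the GC trend removed, without knockout ESC replicate 2 and without knockout EB replicate 1. In knockout EBs 1 of 13 fell, where 2.04% of all genes fell: Tfdp2 by 0.37 ± 0.09 (edgeR adjusted p = 0.0381), with a median of -0.34 over the 13. That count was 6 with the GC trend removed, where 785 of all genes were lower, beside 350 in the main fit. It rose without knockout ESC replicate 2, and the call was lost without knockout EB replicate 1. Calls over all genes in EBs rose and fell likewise. Over differentiation 3 of the 13 rose and none fell in knockout, and 3 rose and 4 fell in control. Of all genes, 8.23% rose and 7.11% fell in knockout, and 8.60% rose and 9.63% fell in control. E2f4 and E2f7 rose in both, E2f7 by 0.53 ± 0.14 in knockout and 0.74 ± 0.14 in control (adjusted p = 0.0283 and 0.0043). E2f2, another activating E2F, fell in control by 0.66 ± 0.15 (adjusted p = 0.0123), and the other 3 that fell there, named after their values were seen, were Rb1, Rbl2 and Tfdp2. With the GC trend removed 5 rose in control. Without knockout EB replicate 1 the 3 calls in knockout were lost, in a fit that called far fewer of all genes there.

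The 25 S phase genes are known E2F targets. In knockout ESCs 3 rose and 2 fell, beside 8.30% and 6.20% of all genes, with a median log2 change of -0.02. Gins2, of the replicative helicase, rose by 0.55 ± 0.10, Cdc6, which loads that helicase, by 0.38 ± 0.10, and Tk1, a thymidine kinase, by 0.34 ± 0.09 (edgeR adjusted p = 0.00348, 0.029 and 0.0316). The 2 that fell, Mcm2 and Pola1, were named after their values were seen, at -0.29 ± 0.09 and -0.48 ± 0.14 (adjusted p = 0.0462 and 0.0461). Without knockout EB replicate 1, which is in neither ESC group, fewer were called in ESCs. Without knockout ESC replicate 2 more were lower there, as were more of all genes. In knockout EBs none of the 25 was called, with a median of -0.12. With the GC trend removed 1 was lower, where 785 of all genes were lower, beside 350 in the main fit. More were lower without knockout ESC replicate 2, which is in neither EB group, and calls over all genes rose in that fit as well. Over differentiation 2 S phase genes rose and 1 fell in knockout, and 4 rose and none fell in control. Of all genes, 8.23% rose and 7.11% fell in knockout, and 8.60% rose and 9.63% fell in control. Mcm2, a helicase subunit, rose by 0.35 ± 0.09 in both (adjusted p = 0.0225 in knockout and 0.0194 in control), and Tk1 fell in knockout by 0.41 ± 0.09 (adjusted p = 0.0146). With the GC trend removed 4 were lower in knockout, where 1959 of all genes were lower, beside 1217 in the main fit. Without knockout ESC replicate 2 more genes of the list were called in both genotypes, and without knockout EB replicate 1 fewer. Calls over all genes rose in control in the first of these 2 fits and fell in knockout in the second. None of 20 mitotic genes was called in knockout ESCs or EBs (medians 0.03 and -0.01), where 14.5% and 6.80% of all genes were called. That count did depend on the fit. With the GC trend removed 3 were higher and 1 lower in ESCs. In that fit 2259 of all genes were higher in ESCs, beside 1421 in the main fit. Without knockout ESC replicate 2 some were called in both stages. More of all genes were then lower in ESCs and called in EBs. Over differentiation 4 mitotic genes fell in knockout and 6 in control, beside 7.11% and 9.63% of all genes, Mki67 by 0.36 ± 0.08 and 0.31 ± 0.08 (adjusted p = 0.0151 and 0.0265). Without knockout EB replicate 1 fewer mitotic genes fell in both genotypes, as did fewer of all genes in knockout. Without knockout ESC replicate 2 more fell in control, as did more of all genes.

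**Figure D5:**
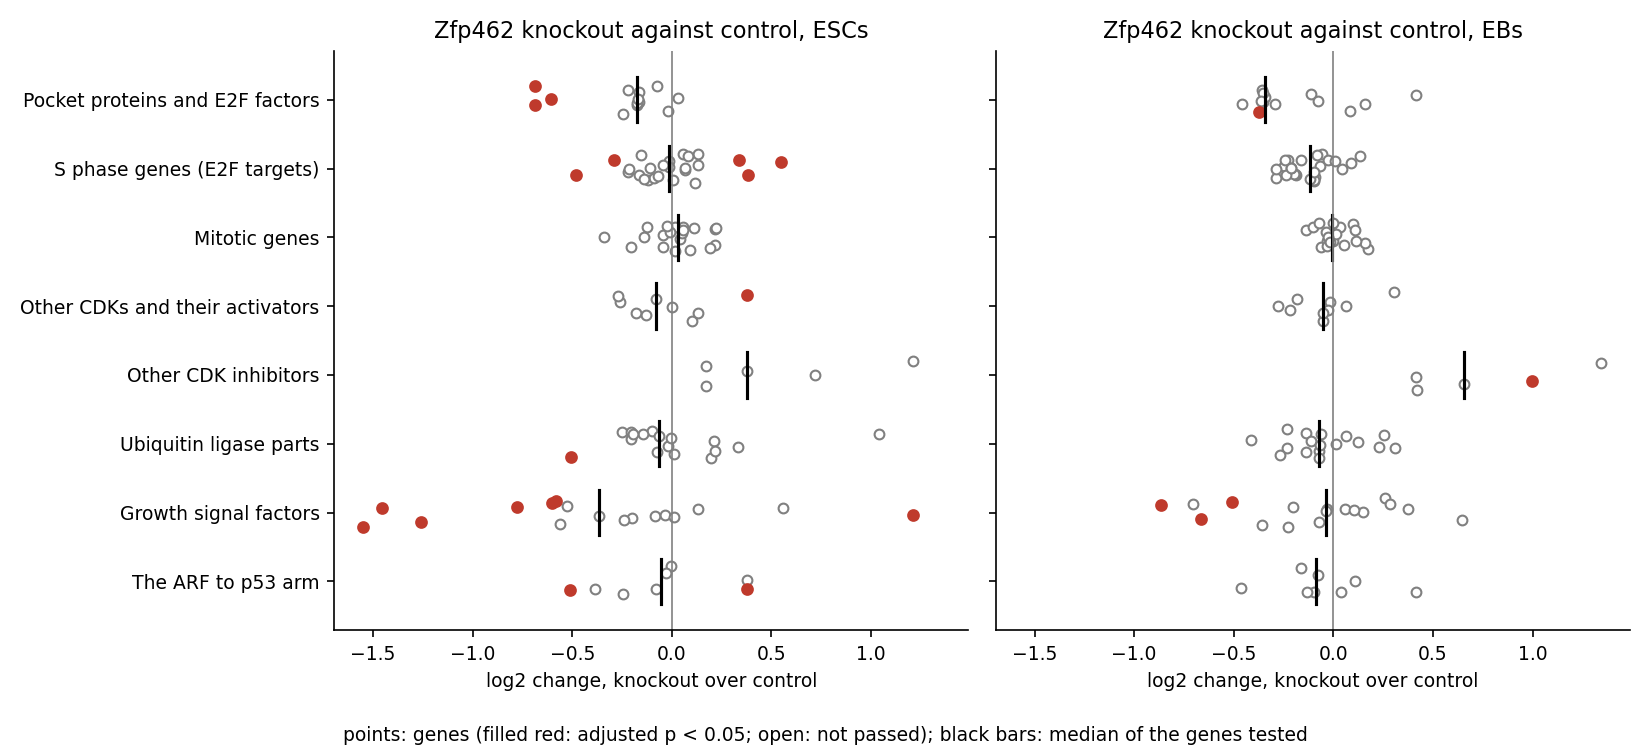
Log2 change in knockout against control (x axis) of genes around the G1 switch, by group, in ESCs (left) and EBs (right). Points are genes, filled red where the adjusted p was below 0.05, and black bars are medians. Red points lie left of 0 for the E2F group and mostly left for growth signal factors, and all 5 other CDK inhibitors lie right of 0 in both panels with 1 of them called.

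The 5 other CDK inhibitor genes all had values above 0 in both stages, and 1 call. The median log2 change was 0.38 in knockout ESCs and 0.65 in knockout EBs, beside -0.03 and 0.00 over all genes tested. The share of all genes above 0 is not given here. In ESCs the Cdkn2b libraries overlapped between genotypes, and Cdkn2c averaged only 2.73 CPM in knockout and 1.19 CPM in control. Cdkn3, which encodes a phosphatase that acts on CDK2, had 9.19 and 7.38 CPM in knockout EBs, against 3.38 and 4.94 CPM in control EBs. It rose by 1.00 ± 0.25 on the log2 scale (edgeR adjusted p = 0.0427). That call was lost without knockout EB replicate 1, in a fit that called far fewer of all genes in EBs. With the GC trend removed 2 of the 5 were called higher in ESCs and 3 in EBs. In that fit 2259 and 1695 of all genes were higher, beside 1421 and 814 in the main fit. Without knockout ESC replicate 2 more of the 5 were called than in the main fit, as were more of all genes in EBs. Of 9 other CDK genes and their activators, Cdk1 rose in knockout ESCs, by 0.38 ± 0.11 (adjusted p = 0.0435), and none was called in EBs. Of 17 ubiquitin ligase parts that act on G1 proteins, 1 was called in ESCs and none in EBs. Ambra1, a receptor that marks D cyclins for degradation, fell in knockout ESCs by 0.51 ± 0.14 (edgeR adjusted p = 0.0397). Beside the counts of these lists, 8.30% of all genes rose and 6.20% fell in knockout ESCs, and 4.75% rose and 2.04% fell in knockout EBs. Without knockout ESC replicate 2 the Cdk1 call was lost. More ligase parts were then called in both stages, as were more of all genes in EBs. With the GC trend removed 1 ligase part was higher and 2 lower in ESCs, and 2 were higher in EBs. Without knockout EB replicate 1 neither Cdk1 nor Ambra1 was called. That library is in neither ESC group and enters the ESC comparison through the shared spread, the gene filter and the scaling.

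Of 8 genes of the arm from p19ARF to p53, 1 rose and 1 fell in knockout ESCs, beside 8.30% and 6.20% of all genes. The output of p19ARF was not tested, since RNA does not give p53 protein and the Cdkn2a count sums 2 products. Trp53, the p53 gene, fell in knockout ESCs by 0.51 ± 0.10 (edgeR adjusted p = 0.00536). It had 320 and 263 CPM there, against 424 and 408 CPM in control ESCs. Ccng1, a known p53 target, rose by 0.38 ± 0.10 (edgeR adjusted p = 0.0327), a call lost without knockout EB replicate 1, which is in neither ESC group. Cdkn1a, the p53 target that encodes p21, had 75.0 and 59.9 CPM in knockout ESCs, against 50.7 and 53.3 CPM in control ESCs. Its knockout values were higher without passing (log2 change 0.38 ± 0.13, adjusted p = 0.0875). In EBs none of the 8 was called. Without knockout ESC replicate 2 some were called in EBs and more were higher in ESCs, in a fit that called more of all genes in EBs. Around Cdkn1c in the imprinted Kcnq1 domain, 9 of 10 genes were tested and none was called in ESCs. In knockout EBs Phlda2, a maternally expressed growth regulator, fell, where 2.04% of all genes fell. Phlda2 had 4.97 and 6.09 CPM in knockout EBs, against 11.4 and 14.5 CPM in control EBs, without overlap (log2 change -1.23 ± 0.21, edgeR adjusted p = 0.00715). This call too was lost without knockout EB replicate 1, in a fit that called far fewer of all genes in EBs. For the gene lists the other EB libraries were not left out in turn.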

How the data were processed

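The authors deposited one table of raw counts, whole reads per gene for 8 libraries, and the submitters' processing notes list mm10 as the build with HISAT2, featureCounts and DESeq2 as tools. No source used here gives their versions, the strand setting or the handling of reads shared between genes. Columns were matched to samples by title, and 55141 of 55401 gene IDs to symbols in GENCODE M21. From the counts, edgeR 4.0.16 (R 4.3.3) kept 17125 genes by filterByExpr and computed TMM factors and CPM. Its quasi-likelihood model had 1 mean for each of the 4 groups over all 8 libraries (biological coefficient of variation 0.132), so knockout and control, and EBs and ESCs, were compared with 1 shared estimate of the spread. The Benjamini-Hochberg adjustment ran over the 17125 genes, and an adjusted p below 0.05 was a call. The SE is the log2 change over the root of the F statistic. Levels per kilobase use the length in the table.

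All 10 genes are named in every comparison. From each gene list, up to 3 genes with the smallest adjusted p below 0.05 are named in a comparison, and for each gene called between knockout and control the 2 most correlated genes averaging at least 5 CPM. The 10 genes and the lists were chosen with earlier results of these data known. Alternatives were median-of-ratios factors, library totals, no filter, a mean of at least 1 CPM, a replicate block, only the groups compared, DESeq2 1.42.0, removal of each library's GC trend (a spline with 5 degrees of freedom, alone and with the block), the longest transcript as length, and each library left out. Where a library left out leaves 1 in a group, that library is assumed to vary like the others. A library outside the groups compared enters a comparison through the shared spread, the gene filter and the scaling. The list counts without knockout ESC replicate 2, without knockout EB replicate 1 and with the GC trend removed were added after seeing the data. The fits were tested on simulated data.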

Additional observations from a re-analysis of the deposited data

Results flagged for a closer look

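Ccne2 was the single result with opposite directions in the 2 genotypes over differentiation. In knockout, both EB libraries (25.8 and 28.1 CPM) lay below both ESC libraries (29.1 and 36.7 CPM), a log2 change of -0.287 ± 0.15. In control, both EB libraries (30.4 and 27.7 CPM) lay above both ESC libraries (20.3 and 24.6 CPM), a log2 change of 0.37 ± 0.16. Neither change passed in edgeR (adjusted p = 0.235 and 0.131), and the test of the difference gave -0.65 ± 0.22 with an adjusted p of 0.229. That test passed in 2 of 16 alternatives, with the GC trend removed (adjusted p = 0.048) and without knockout ESC replicate 1 (adjusted p = 0.0207).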

How the results depend on the processing

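The Ccnd1 and Ccnd2 calls in knockout against control ESCs, and in EBs against ESCs in knockout, held in all 17 alternatives, as did that of Ccnd1 in EBs against ESCs in control. Over 840 values of single genes under an alternative, 718 kept their direction and their side of the threshold, 43 lost a call, 53 gained one and 26 changed sign, all of them values without a call. Scaling moved the median of all genes by no more than 0.1 on the log2 scale. The labels do not say whether the replicate numbers pair the samples. Correlations of replicate differences between groups ran from -0.238 to 0.0373 over 11328 genes, which cannot settle it. With the replicate number as a replicate block, 3 genes of the 10 were higher and 1 lower in knockout ESCs, 0 and 1 in knockout EBs, and 2 and 2 over differentiation in each genotype, and all genes called were 1294 higher and 987 lower in knockout ESCs and 694 and 273 in knockout EBs. The cause was not tested for any change below.

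In the fit to only the libraries of the groups compared, calls over all genes were 407 lower in knockout ESCs, 1449 higher and 1271 lower in knockout EBs, 389 higher and 429 lower in EBs against ESCs in knockout, and 2932 and 2639 in control. Of the 10 genes, 1 was then higher and 3 lower in knockout EBs, 1 higher and 1 lower in EBs against ESCs in knockout, and 5 higher in control. With no filter the counts over all genes were 1442 higher and 652 lower in knockout EBs, 2171 higher in EBs against ESCs in knockout, and 448 higher and 256 lower in the difference contrast, with 1 gene of the 10 higher and 2 lower in knockout EBs and 1 lower in the difference contrast. DESeq2 gave 203 higher and 171 lower in the difference contrast, with 1 gene of the 10 higher and 2 lower in knockout EBs and 1 lower in the difference contrast, and median-of-ratios factors gave 2 lower in knockout EBs.

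With the GC trend removed, and with it removed together with the replicate block, the counts over all genes were 2259 and 2190 higher in knockout ESCs, 1695 and 1592 higher and 785 and 745 lower in knockout EBs, 1959 and 1882 lower in EBs against ESCs in knockout, and 416 and 390 higher and 319 and 299 lower in the difference contrast. Of the 10 genes, both gave 1 higher and 2 lower in knockout EBs and 1 higher and 4 lower in EBs against ESCs in knockout, and they gave 2 and 1 lower in the difference contrast.

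With 1 library left out at a time, the counts over all genes ran from 485 to 1948 higher and 271 to 2781 lower in knockout ESCs, 196 to 1721 and 40 to 1466 in knockout EBs, 503 to 3228 and 340 to 2257 in EBs against ESCs in knockout, 351 to 2779 and 479 to 2733 in control, and 0 to 1463 and 0 to 577 in the difference contrast. Of the 10 genes, the ranges were 1 to 3 higher and 1 to 2 lower in knockout ESCs, 0 to 1 and 0 to 3 in knockout EBs, 1 to 3 and 1 to 3 in EBs against ESCs in knockout, 1 to 5 and 0 to 3 in control, and 0 to 2 lower in the difference contrast.

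Sign changes touched only values without a call, all within 0.1 of 0 on the log2 scale except those of Ccnd3, at 0.15 in knockout ESCs, -0.32 in EBs against ESCs in knockout and -0.11 in the difference contrast. With 1 library left out the ranges were -0.0703 to 0.000621 for Cdk6, -0.167 to 0.402 for Ccnd3, -0.104 to 0.0892 for Cdkn1c and -0.15 to 0.0371 for Cdkn1b in knockout ESCs. They were -0.115 to 0.0467 for Cdkn1b and -0.0719 to 0.129 for Cdk6 in knockout EBs, -0.57 to 0.00501 for Ccnd3 in EBs against ESCs in knockout and -0.249 to 0.0909 for Cdkn2a in control. In the difference contrast they were -0.0726 to 0.114 for Cdkn1b, -0.36 to 0.214 for Ccnd3 and -0.0374 to 0.165 for Cdk6. A mean of at least 1 CPM gave 0.00433 for Cdk6 in knockout ESCs and -0.0135 for Cdkn1b in the difference contrast. With the GC trend removed, without and with the block, Cdkn1b in knockout EBs was at 0.0152 and 0.0148, and Ccne1 in EBs against ESCs in knockout at -0.0595 and -0.0588. Library totals without composition factors gave -0.00528 for Ccne1 there. With 2 libraries a group, the intervals of Cdkn1c, at 61 to 142 counts a library, were the widest of the 10 genes between knockout and control.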
